A study of Mus musculus with 20 samples.

Results

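The testis of C57BL/6 mice 12 h after a heat shock was compared with the testis of C57BL/6 controls, 2 arrays against 2, out of 20 arrays in the series. The treated mice had been exposed to 43 °C for 15 min. The controls were labelled as such and carry no time of their own, and the mice of every group were 8 weeks old. The other 16 arrays held C57BL/6 testis at 8, 10 and 24 h and AKR/N testis at control, 8, 10, 12 and 24 h, with 2 arrays in each group. Total RNA of whole testis was read on a 1-colour Affymetrix mouse array on which a gene is measured by 1 or more probe sets, each giving a signal. Whether both arrays of a group come from different mice is not in the labels, and the p-values therefore cover no more than the scatter among these arrays, which could be technical. In whole testis, fewer cells of a type and less RNA per cell cannot be told apart.

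The testis is kept below body temperature, and spermatocytes and young spermatids are known to be its most heat-sensitive cells. Heat unfolds proteins and releases the transcription factor HSF1, which binds heat shock elements and switches on genes for chaperones, the proteins that hold, refold or hand on unfolded clients. Heat is also known to disturb meiosis, to break the barrier formed by Sertoli cells and to trigger death of germ cells through p53-dependent and p53-independent routes.

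At 12 h the largest rises took in chaperones, stress and immediate early genes and p53 targets, with the cytokine receptor gene Tnfrsf12a and the steroid synthesis gene Star among them, and the falls took in genes of cell division, meiotic spermatocytes and the piRNA pathway. Of 15762 genes tested with limma, 3010 (19.1%) passed an adjusted p of 0.05. Of all tested genes 9.71% rose and 9.38% fell, which is 1531 and 1479 genes, and 271 rose and 226 fell at least 2-fold. Changes are differences of log2(signal + 16), which understates the change of dim genes. A gene was tested where at least 1 group mean reached a signal of 17.5, and 185 of the rises and 70 of the falls had their lower group under it. The sizes of those changes rest on the 16 added to the signal. Hspa1b had the largest rise, 5.86 ± 0.66 (SE, n = 2 against 2), and Zfp688, whose 12 h signals lay under 17.5, the largest fall, at −2.45 ± 0.23. With 64 added in place of 16 Zfp688 gave −1.34, and Msi2 and Cdc42ep3 were among the genes with larger falls. The 12 h arrays lay wholly above or below the control arrays in 57.7% of all genes, so arrays that do not overlap are common here and are not called changes. With each array centred on its median, 724 genes rose and 1677 fell, so that 30.2% of the calls were rises in place of 50.9%. That centring moved the median change over all genes from 0.06 to −0.07.

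**Figure D1:**
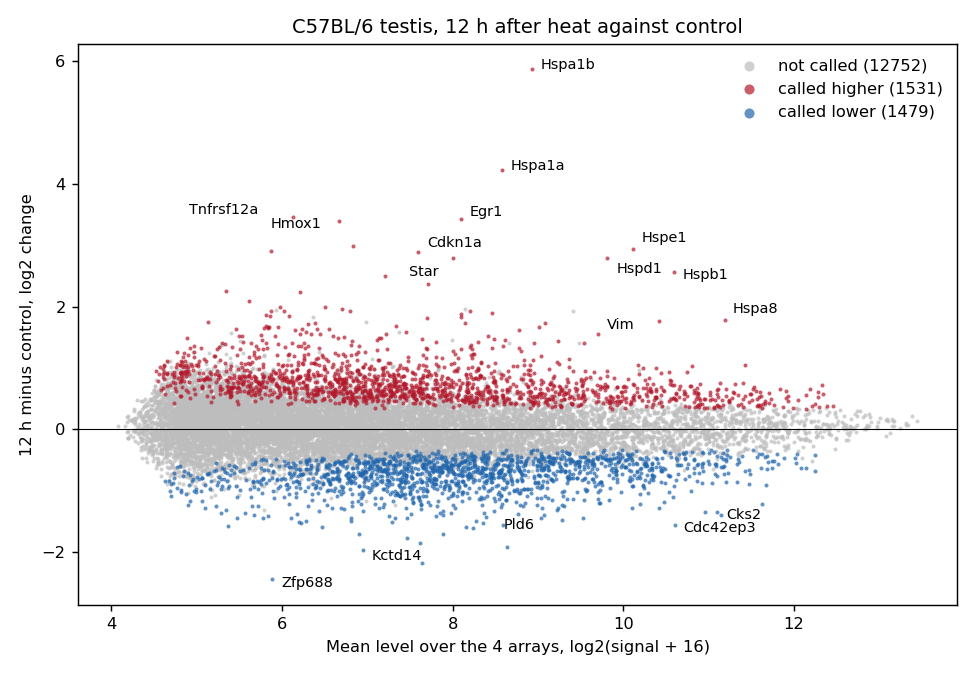
Change at 12 h against control (vertical axis, log2) by mean level over the 4 C57BL/6 arrays (horizontal axis, log2 of signal + 16) for 15762 genes, 1 point each; red and blue points passed limma at an adjusted p of 0.05. Hspa1b stands highest at 5.86, and Zfp688 lowest at −2.45.

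Array quality differed between the groups. The ratio of beta-actin signal at the 3′ end to that at the 5′ end, which is higher where RNA is degraded or incompletely copied, was 2.14 and 2.46 in the controls and 2.52 and 3.57 at 12 h. The value of 3.57, of 12 h replicate 2, was the highest of the 20 arrays, and the same array had the highest Gapdh ratio, 1.80, against 1.25 in 12 h replicate 1. In the dimmest 3941 genes the median difference from the controls was 0.29 in 12 h replicate 2 and 0.02 in replicate 1. In the brightest 3941 it was −0.06 and 0.00. Without 12 h replicate 2, 1716 genes were called, 1482 of them among the 3010. Without control replicate 1 the count was 1422, without control replicate 2 1194 and without 12 h replicate 1 2588. With the actin ratio as a covariate 1091 genes were called, 998 of them among the 3010. A fit on the 4 arrays alone called 6, and such a fit has few degrees of freedom to estimate the spread. The 12 h pair agreed least of the 10 groups. The standard deviation of the difference between its replicates across genes was 0.461, against 0.303 in the controls. The SEs given here use a spread shared over all 20 arrays, not that of the 12 h pair. Why the count fell to 6 was not tested. Of the rises 50.6% read higher in 12 h replicate 2 than in replicate 1, against 33.5% of the falls, so more of the falls were deeper in replicate 2. The part of RNA quality in the results below was not tested beyond these fits. Below, a call is said to hold where the gene passed without each of the 4 arrays in turn. For calls that held, any other alternative that ended them is named beside the gene, apart from the fit on the 4 arrays alone.

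**Figure D2:**
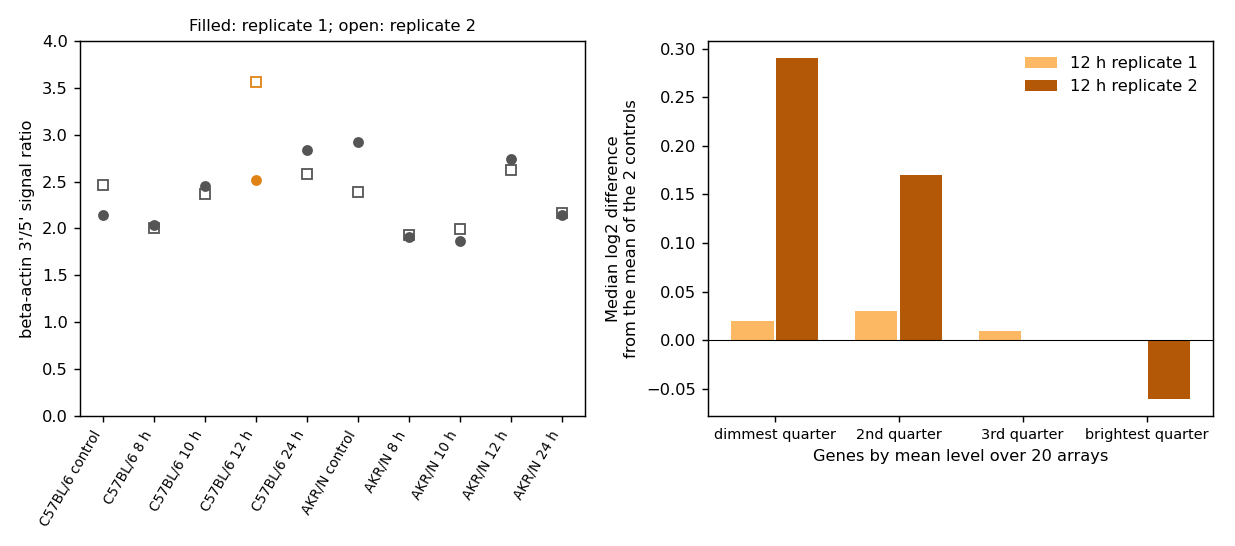
Left, beta-actin 3′/5′ signal ratio of each of the 20 arrays (orange, C57BL/6 12 h; filled, replicate 1; open, replicate 2); right, median log2 difference of each 12 h array from the mean of the 2 controls, for genes in 4 equal classes of level. The open orange point lies at 3.57, and the bars of 12 h replicate 2 go from 0.29 in the dimmest to −0.06 in the brightest class.

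Many heat shock chaperones rose, led by the HSP70, small heat shock protein and mitochondrial chaperonin genes. Of 32 tested, 14 rose, 3 fell and 15 did not pass, with a median of 0.30 against 0.06 over all genes. Leaving out 1 array left 11 to 14 rises and 1 to 2 falls. Hspa1b and Hspa1a are the inducible HSP70 genes, near-identical neighbours whose signals the probes may share. Hspa1b read 58.2 and 39.1 in the controls and 2259 and 6071 at 12 h (adjusted p = 2.03e-04), and its other 2 probe sets gave 5.60 and 5.78. Hspa1a read 80.9 and 64.9, then 783.2 and 3385, a rise of 4.22 ± 0.67 (adjusted p = 0.00133). In both genes 12 h replicate 2 was far above replicate 1, and replicate 1 alone was far above both controls. Hspa8, the constitutive HSC70 that serves folding in unstressed cells too, read 1213 and 1287, then 4388 and 4265, a rise of 1.78 ± 0.12 (adjusted p = 2.08e-06). Its 2 replicates in each group lay close together, unlike those of the inducible pair.

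The mitochondrial chaperonin consists of a barrel, Hspd1 (HSP60), and its lid, Hspe1 (HSP10). Hspd1 read 323.8 and 327.8 in the controls and 2164 and 2544 at 12 h, a 6.91-fold rise on the scale used (2.79 ± 0.17, adjusted p = 2.05e-06). Hspe1 read 419.2 and 348.0, then 2799 and 3302, a 7.68-fold rise (2.94 ± 0.19, adjusted p = 2.08e-06). Both calls held, and no array of 1 group came near the other group. The 2 genes lie head to head and share 1 promoter. A search of the 250 bases before the start in RefSeq's promoter table (GRCm38.p6) for a heat shock element, read as GAA, TTC and GAA in a row with any 2 bases between them, on both strands, found it there as 2 overlapping matches. The stretch is shown because it sits between these genes, beside the matches of 2 other genes that rose at least 2-fold and of the co-chaperone gene Dnajb6, which did not pass; capitals mark the matches.
Hspe1, chr1:55088053-55088082, + strand, also Hspd1 on the other strand: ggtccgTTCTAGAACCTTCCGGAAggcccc
Pitpnm2os1, chr5:124229670-124229699, + strand: cagatatgTTCTAGAACATTCtgagagact
Gm364, chrX:57409083-57409112, + strand: aacggttcTTCTGGAAAATTCttatccccg
Dnajb6, chr5:29735844-29735873, + strand: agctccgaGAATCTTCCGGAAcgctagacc

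The match began 89 bases before the start of Hspe1 and 144 before that of Hspd1. Pitpnm2os1 rose by 1.04 (adjusted p = 0.0042) and Gm364 by 1.0 (adjusted p = 6.14e-04), both calls holding, while Dnajb6 changed by 0.19 (adjusted p = 0.34). Such a match was found in 153 of 32851 windows of the table (0.466%) and in 66 of the 12634 tested genes with a window (0.522%). It was found for 8 of 1249 genes that rose (0.641%), 4 of 216 that rose at least 2-fold (1.85%), 6 of 1210 that fell (0.496%) and 3 of 27 listed chaperones (11.1%). Hspd1 and Hspe1 count as 2 genes among the risen genes and the chaperones, though they share 1 stretch. The other listed chaperone with a match is Dnajb6, so these shares do not count separate places in the genome. No match lay in the windows of Hspa1a, Hspa1b, Hspb1, Hsph1 and Chordc1, chaperone genes that rose, the inducible HSP70 pair among them. Of the genes that fell at least 2-fold 1 of 179 had it, Gm3458, at −1.28 (adjusted p = 0.00321). A match is letters in a window and no measure of binding.

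Among small heat shock proteins, which hold unfolding clients without ATP, Hspb1 (HSP25) read 576.1 and 666.3, then 3579 and 3909, a rise of 2.56 ± 0.15 (adjusted p = 2.05e-06). Cryab (alpha-B-crystallin) read 22.9 and 25.8, then 300.3 and 307.8, a rise of 2.99 ± 0.23 (adjusted p = 1.27e-05), with other probe sets at 0.70 and 2.17. Hspb8, another small heat shock protein, read 15.1 and 13.2, then 73.1 and 130.7, a rise of 1.92 ± 0.31. Hspb6 went the other way, from 301.5 and 318.5 to 201.8 and 169.4, a fall at −0.70 ± 0.13 (adjusted p = 0.00321). These 4 calls held, so the family went both ways.

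Other members, named for their role, moved less. Hsph1 (HSP110, a nucleotide exchange factor of HSP70) rose by 1.10, Chordc1, a partner of HSP90, by 1.0, and Dnajb4, an HSP40 co-chaperone, by 0.71, and these calls held. Dnaja1 and Dnaja4, also HSP40 proteins, rose by 0.38 and 0.44. The Dnaja1 call ended without any of the 4 arrays (adjusted p from 0.068 to 0.16), and that of Dnaja4 without either control or 12 h replicate 2. Hsf2, a heat shock factor, rose by 0.76, a call that ended without control replicate 1 (0.48, adjusted p = 0.206) or 12 h replicate 2 (0.48, adjusted p = 0.196). St13 and Fkbp4, co-chaperones of the HSP70 and HSP90 cycle, had changes of −0.62 and −0.40, and that of Fkbp4 reversed in direction with the mean of all probe sets. The St13 call ended without either control or 12 h replicate 2, and the Fkbp4 call without control replicate 2 (−0.24, adjusted p = 0.314) or either 12 h array.

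Several familiar chaperones did not pass. Hsp90aa1, the inducible cytosolic HSP90, read 6317 and 6220 in the controls and 6098 and 6417 at 12 h, a change of 0.00 ± 0.10. Dnajb1, the main HSP40 partner of HSP70, changed by −0.11 ± 0.13, and Hspa9, the mitochondrial HSP70, by −0.14 ± 0.14. Bag3, an HSP70 co-factor, read 244.0 and 280.8, then 196.6 and 486.3, so its 12 h arrays lay on both sides of the controls. Of the 9 subunits of TRiC, the cytosolic chaperonin, none passed in limma, with a median of −0.09, and 1 was called without 12 h replicate 2. Of the 13 germ cell chaperones 2 rose and 1 fell, a called share of 23.1% against 19.1% of all genes. Hspa1l, the HSP70 of haploid germ cells, rose by 0.59 ± 0.12, from 1894 and 2198 to 3332 and 2848, a call that held over the arrays but ended with median centring. Pdilt, a testis disulfide isomerase, changed by 0.65 ± 0.16, a call that ended without 12 h replicate 2 or either control. Hspa2, the HSP70 of meiotic spermatocytes, read 2199 and 2351, then 1277 and 1825, a change of −0.57 ± 0.18 (adjusted p = 0.0372). That call ended without either control or 12 h replicate 1.

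**Figure D3:**
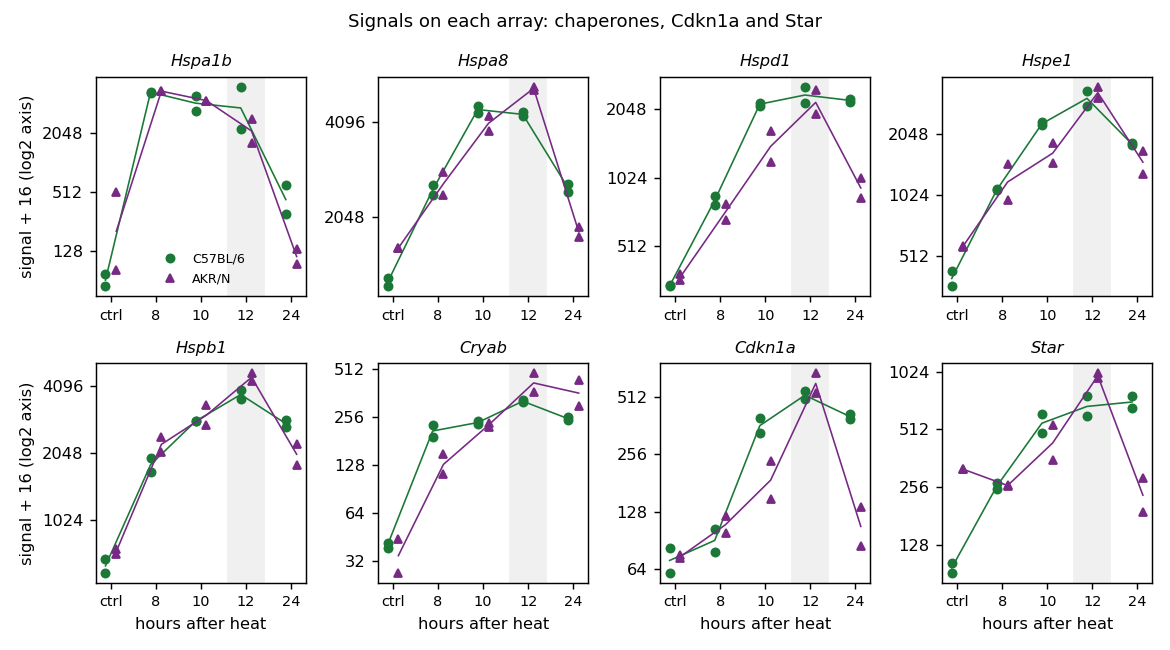
Signal + 16 (log2 axis) of 8 genes on each array by hours after heat, in C57BL/6 (green circles) and AKR/N (purple triangles); points are arrays, lines join group means and the grey band marks 12 h. In C57BL/6 both 12 h points lie above both control points in every panel, and the 12 h points of Hspa1b lie farthest apart, at signals of 2259 and 6071. Apart from Hspa8, these genes were picked among called genes whose arrays do not overlap, so their separation was set by the choice.

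Targets of p53, the factor that halts the cycle or starts cell death after damage, rose. Of 24 tested, 12 rose, 0 fell in limma and 12 did not pass, with a median of 0.60. Cdkn1a (p21), which inhibits cyclin-dependent kinases, read 66.3 and 45.1, then 484.6 and 534.7, a rise of 2.89 ± 0.26 (adjusted p = 4.45e-05), and its other probe set gave 1.25. Ccng1 (cyclin G1) read 69.9 and 82.7, then 521.1 and 408.6, a rise of 2.38 ± 0.22, with 0.71 and 1.37 on its other probe sets. Both 12 h arrays of these genes were several times the controls. Gadd45a, a stress sensor, rose by 1.68 ± 0.17 and Btg2, an antiproliferative gene, by 2.5 ± 0.38. These 4 calls held. Mdm2, which encodes the ligase that destroys p53, changed by 0.35 (adjusted p = 0.107). The count of 12 became 7 without control replicate 1, 6 without control replicate 2 and 6 with the actin covariate.

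Genes of the apoptosis machinery went both ways: of 36 tested, 10 rose, 4 fell and 22 did not pass, with a median of 0.19. The called share was 38.9%, against 19.1% of all genes, which also went both ways. Pmaip1 (Noxa), a BH3-only killer and also a p53 target, read 35.4 and 34.2, then 89.5 and 88.9, a rise of 1.05 ± 0.18 (adjusted p = 0.00216). Bcl2l14, a BCL2-like gene, rose by 0.61 ± 0.10. Cyct, the testis form of cytochrome c, read 1980 and 1895, then 1119 and 972.7, a fall at −0.88 ± 0.14, while the somatic form Cycs rose by 0.57 ± 0.13, a call that ended without control replicate 2 or 12 h replicate 1. Diablo, which frees caspases from their inhibitors, fell by 0.88 ± 0.16, with its other probe set at −0.34. Bad, a BH3-only killer, changed by −0.94 and Birc5 (survivin), which serves mitosis and survival, by −0.67. The calls of Pmaip1, Bcl2l14, Cyct, Diablo, Bad and Birc5 held, though that of Diablo ended with the actin covariate (−0.64, adjusted p = 0.069). The 10 rises became 3 without control replicate 1, 2 without control replicate 2, 5 without 12 h replicate 2, 5 with the actin covariate and 6 with median centring.

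Immediate early genes, which cells switch on within minutes of many stimuli, had the highest median of the lists, 1.03, and their 12 h arrays were uneven. Of 31 tested, 17 rose, 0 fell in limma and 14 did not pass, and 25 read higher in 12 h replicate 2 than in replicate 1. Egr1, a zinc finger activator, read 66.0 and 69.5, then 445.7 and 1722, a rise of 3.42 ± 0.72 (adjusted p = 0.00596) that did not pass without 12 h replicate 2 (2.46, adjusted p = 0.0639). Atf3, a stress-induced repressor, read 2.91 and 8.19, then 58.5 and 328.7, a rise of 2.90 ± 0.61 (adjusted p = 0.00603). It gave 1.80 without 12 h replicate 2 (adjusted p = 0.0595). Ier3 rose by 2.24 ± 0.25, the small GTPase gene Rhob by 1.62 ± 0.22 and the zinc finger gene Klf6 by 1.66 ± 0.24, and these calls held. The 17 rises became 10 without 12 h replicate 2 and 6 with the actin covariate.

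Of 17 inflammatory genes 4 rose, 0 fell in limma and 13 did not pass, with a median of 0.67. Tnfrsf12a, the receptor for the cytokine TWEAK, rose from 3.31 and 7.27, at the dim end of the array, to 254.5 and 184.3 (3.46 ± 0.37, adjusted p = 1.35e-04), and 2.98 on its other probe set. Tnfaip3, a brake on NF-kappaB, rose by 0.83 ± 0.19, a call that ended without control replicate 1. The chemokine gene Cxcl1 changed by 0.67 and the interleukin receptor gene Il1r1 by 0.99, and each call ended without either control or 12 h replicate 2, that of Il1r1 also without 12 h replicate 1. Il1b and Tnf, the cytokines themselves, changed by 0.04 and 0.70 and did not pass. The 4 rises became 2 without either control or 12 h replicate 2, 2 with median centring and 1 with the actin covariate.

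Of 21 interferon-stimulated genes 11 rose, 0 fell in limma and 10 did not pass, with a median of 0.82. Ifit2, which binds foreign RNA, was listed at 1.13 and 1.05 in the controls and 19.1 and 23.3 at 12 h (1.12 ± 0.19, adjusted p = 0.00201). It was tested only because its 12 h arrays passed the filter on dim genes, so that it had to differ, and its change was 2.30 with 4 added to the signal and 0.39 with 64. Oasl2 read 19.54 and 19.97, then 97.1 and 55.5, a rise of 1.33 ± 0.27 (adjusted p = 0.00488). These 2 calls held. The guanylate-binding gene Gbp2 rose by 1.03 ± 0.22 and Iigp1 by 0.87 ± 0.19, and both calls ended without 12 h replicate 2, that of Gbp2 also without control replicate 2 and that of Iigp1 also without control replicate 1. The 11 rises became 6 without control replicate 1, 3 without control replicate 2, 3 without 12 h replicate 2 and 3 with the actin covariate. Many of these genes are dim, and 14 of the 21 read higher in 12 h replicate 2 than in replicate 1.

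Antioxidant genes rose: of 26 tested, 11 rose, 1 fell and 14 did not pass, with a median of 0.48. Hmox1, the heme oxygenase that breaks heme down, read 5.65 and 29.9, then 226.7 and 433.3, a rise of 3.39 ± 0.40 (adjusted p = 2.76e-04). Sqstm1 (p62), an autophagy receptor, read 261.8 and 319.1, then 819.7 and 761.5, a rise of 1.40 ± 0.16. Txnrd1, thioredoxin reductase, rose by 1.32 ± 0.16 and its substrate Txn1 by 0.99 ± 0.13. Nfe2l2 (NRF2), the factor that drives many of these genes, rose by 1.02 ± 0.13, but its other probe set gave −0.24 and the mean of its probe sets did not pass (0.39, adjusted p = 0.10). All 5 calls held. Mt1, a metallothionein, changed by 0.05. Sod2, mitochondrial superoxide dismutase, was the member that fell, at −0.51, and its call ended without either control or 12 h replicate 2. With the mean of all probe sets its change reversed in direction, and no member of the list was then called lower. The 11 rises became 5 without control replicate 1, 6 without control replicate 2 and 7 with the actin covariate.

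Hypoxia and glycolysis genes included 9 that rose and 1 that fell of 23, with a median of 0.40. Hif1a, the oxygen-sensing factor, read 195.6 and 127.6, then 455.4 and 376.8, a rise of 1.30 ± 0.24. The collagen prolyl hydroxylase gene P4ha1 rose by 1.16 ± 0.17 and the glycolytic genes Aldoa and Pgk1 by 0.94 ± 0.13 and 0.86 ± 0.15. Each call held, though other probe sets gave 0.06 for P4ha1, 0.26 and 1.15 for Hif1a, 0.12 to 0.69 for Aldoa and 0.60 and 1.09 for Pgk1. The 9 rises became 5 without control replicate 2 or with median centring. Of 24 glutathione transferase and alcohol enzyme genes 9 rose and 1 fell, with a median of 0.24. Ephx1, an epoxide hydrolase, rose by 0.73 ± 0.13 and Adh1, an alcohol dehydrogenase, by 1.15 ± 0.22, both calls holding. Without 12 h replicate 1, which read 168.8 against 84.2 in replicate 2, the rise of Adh1 was 0.71. Mgst1, a membrane glutathione transferase, rose by 0.68 ± 0.14 and Cbr3, a carbonyl reductase, by 1.63 ± 0.37. Those calls ended without control replicate 2, that of Cbr3 also without 12 h replicate 1, where it read 256.1 against 83.3 in replicate 2. The 9 rises became 5 without control replicate 1, 2 without control replicate 2, 5 without 12 h replicate 1, 5 with the actin covariate and 4 with median centring.

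The unfolded protein and integrated stress response list held calls both ways, as all genes did. Of 30 genes 5 rose, 4 fell and 21 did not pass, with a median of 0.18. Of this list 30% was called, against 19.1% of all genes, of which 9.71% rose and 9.38% fell. Xbp1, a driver of the endoplasmic reticulum response, read 186.2 and 179.0, then 465.8 and 428.1, a rise of 1.22 ± 0.18 (adjusted p = 0.00104). Sdf2l1, an endoplasmic reticulum chaperone component, went from 179.4 and 134.0 to 46.5 and 74.7, a fall at −1.19 ± 0.23 (adjusted p = 0.00408). Both calls held. Asns, asparagine synthetase, rose by 0.48 ± 0.11, a call that ended without control replicate 1 or with median centring. Hspa5 (BiP), the main chaperone of that compartment, changed by 0.16 ± 0.13, and Ddit3 (CHOP), the death-linked factor, by −0.49 ± 0.14. The Ddit3 call ended without either control or 12 h replicate 1. The 5 rises became 3 without either control, 7 without 12 h replicate 1, 2 without 12 h replicate 2 and 1 with the actin covariate. The 4 falls became 1 without control replicate 1 and 2 without any 1 of the other 3 arrays.

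Of 10 genes of steroid synthesis in Leydig cells 2 rose, Star and Cyp11a1, which act in the first steps. The called share was 20%, against 19.1% of all genes. Star, which carries cholesterol into mitochondria, read 87.0 and 75.7, then 745.3 and 582.3, a 6.94-fold rise (2.79 ± 0.22, adjusted p = 1.27e-05), with 1.78 and 2.26 on its other probe sets. Cyp11a1, which cuts the cholesterol side chain, read 257.4 and 265.4, then 461.7 and 548.4, a rise of 0.91 ± 0.15 (adjusted p = 0.00165). Both calls held, but the other probe sets of Cyp11a1 gave −0.11 and 0.13, and the mean of its probe sets did not pass (0.31, adjusted p = 0.266). The 8 others of 10 did not pass, and the list's median was −0.02. Later enzymes read 0.40 ± 0.19 (Cyp17a1), −0.15 ± 0.21 (Hsd3b1) and 0.00 (Hsd17b3), and Nr5a1, the factor that drives steroid genes, −0.25 ± 0.17. Of 19 cholesterol synthesis genes 3 rose and 1 fell, a called share of 21.1%, with a median of 0.06. Dhcr7, which makes cholesterol from its precursor, rose by 1.03 ± 0.17 and held. Hsd17b7 rose by 0.80, a call that ended without control replicate 2. Cyp51 and Idi1 changed by 0.55 and −0.77, calls that ended without 12 h replicate 2 or control replicate 2, that of Idi1 also without control replicate 1.

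Genes of mitotic and meiotic division fell. Of 31 tested, 12 fell, 1 rose and 18 did not pass, with a median of −0.47. Only 7 of the 31 read higher in 12 h replicate 2, the array with the highest actin ratio, than in replicate 1. The list's summed signal was 25150 and 27280 in the controls and 20440 and 16130 at 12 h. Cks2, a partner of cyclin-dependent kinases that meiosis needs, read 3538 and 3441, then 1560 and 1183, a fall at −1.35 ± 0.19 (adjusted p = 8.10e-04), with −1.31 on its other probe set. Bub1b, of the spindle checkpoint, read 267.8 and 356.4, then 143.6 and 104.6, a fall at −1.23 ± 0.19, and its other probe sets gave −0.85 and 0.09. Cdk1, the kinase of the M phase, read 477.7 and 556.9, then 278.2 and 205.8, a fall at −1.06 ± 0.21. No 12 h array reached a control array in these genes, and the calls held, but that of Cdk1 ended with the actin covariate (−0.88, adjusted p = 0.0752). The member that rose was Kif2c, a microtubule depolymerase, at 0.58 ± 0.10, but its 3 other probe sets ran from −0.60 to −0.17 and their mean with it was −0.11. The 12 falls became 4 without control replicate 2, 6 without 12 h replicate 2 and 4 with the actin covariate.

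Markers of pachytene spermatocytes, the long mid-meiotic stage, fell: of 21 tested, 9 fell, 1 rose and 11 did not pass, with a median of −0.32. Piwil1 (MIWI), a Piwi protein that binds piRNAs, read 1153 and 1041, then 507.9 and 456.4, a fall at −1.16 ± 0.17 (adjusted p = 0.0010). Pou5f2 read 295.3 and 305.5, then 140.9 and 151.0, a fall at −0.97 ± 0.15. Spag6l, of the axoneme, fell by 0.74 ± 0.14 and Aurkc, the meiotic Aurora kinase, from 401.5 and 394.7 to 231.7 and 239.7 (−0.72 ± 0.15). These 4 calls held. Ldhc, the germ cell lactate dehydrogenase, read 9443 and 9820, then 9595 and 9949, and changed by 0.02. Dazl, an RNA-binding protein of germ cells, was the member that rose, at 0.57, a call that ended without either control or 12 h replicate 1. The 9 falls became 4 without control replicate 2 and 5 with the actin covariate.

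Of 19 genes of the piRNA pathway and germ granule, which silences transposons in the male germ line, 5 fell and 0 rose in limma, with a median of −0.30. Pld6, which acts in piRNA processing on mitochondria, read 548.1 and 556.1, then 186.5 and 237.0, a fall at −1.33 ± 0.16 (adjusted p = 3.02e-04). Henmt1, which methylates piRNA ends, read 82.4 and 104.4, then 39.9 and 37.0, a fall at −1.0 ± 0.19. Tdrd5, a Tudor protein, fell by 0.74 ± 0.13, and with Piwil1 these calls held. Piwil2, Ddx4 and Mael changed by −0.20, −0.30 and −0.01 and did not pass. The count of 5 lay between 4 and 7 when single arrays were left out.

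Of 25 genes of meiotic recombination and synapsis 4 fell, 1 rose and 20 did not pass, with a median of −0.22. The called share was 20%, near the 19.1% of all genes. Spo11, which makes the meiotic double-strand breaks, read 622.1 and 604.4, then 382.1 and 235.1 (−0.99 ± 0.25, adjusted p = 0.015). Syce1 and Psmc3ip changed by −0.41 and −0.49 and Tex11 by 0.57. Each of these calls ended without 12 h replicate 2 or either control, and that of Psmc3ip also without 12 h replicate 1. The 4 falls became 1 without control replicate 1, 0 without control replicate 2, 0 without 12 h replicate 2 and 0 with the actin covariate. Of 24 DNA repair genes 5 fell and 0 rose in limma, with a median of −0.09. That is a called share of 20.8%, against 19.1% of all genes, and 9.38% of all genes fell. Fancd2, of the crosslink repair pathway, fell by 0.68 ± 0.14 and held, with its 3 other probe sets between −0.60 and 0.20 and a probe set mean that did not pass (−0.38, adjusted p = 0.0891). Atr, the replication stress kinase, changed by −0.92 ± 0.21, Parp1, which marks broken strands, by −0.51 and Rad50, of the break-sensing complex, by −0.53. Those 3 calls ended without 12 h replicate 2 or control replicate 2, and the 5 falls became 1 without either.

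Respiratory chain and ATP synthase subunits shifted down: of 48 tested, 12 fell, 2 rose and 34 did not pass, with a median of −0.25. Sdhc and Sdhd anchor succinate dehydrogenase in the membrane. Sdhc read 537.9 and 557.2, then 340.9 and 244.4, a fall at −0.89 ± 0.14, and Sdhd 430.7 and 489.8, then 286.8 and 208.7, a fall at −0.87 ± 0.14. Their other probe sets gave −0.24 and −0.15, and the probe set mean of Sdhd did not pass (−0.51, adjusted p = 0.0647). Ndufs4, of the first complex, fell by 0.60 ± 0.11 and Uqcrfs1, of the third, fell by 0.63 ± 0.12. These 4 calls held over the arrays. Those of Ndufs4 and Uqcrfs1 ended with the actin covariate (adjusted p = 0.0727 and 0.0852). The 3 other probe sets of Ndufs4 gave −0.46 to 0.18, 2 of them above 0, and the mean of its probe sets did not pass (−0.19, adjusted p = 0.265). Of the 48 genes 11 read higher in 12 h replicate 2 than in replicate 1. The 12 falls became 6 without control replicate 1, 6 without 12 h replicate 2 and 3 with the actin covariate, and the 2 rises 0 or 1 without any 1 array. Of 34 ribosomal protein genes 2 rose and 2 fell, with a median of −0.01, and of 32 proteasome subunits 1 rose and 3 fell, with a median of −0.18. Their called shares were 11.8% and 12.5%, against 19.1% of all genes. Rps4x, a small-subunit protein, rose by 0.72 ± 0.12 and held, but the mean of its probe sets did not pass (0.27, adjusted p = 0.0901). The 4 proteasome calls (Psmc2, Psmc5, Psmb5 and Psma8, the testis subunit) ranged from −0.70 to 0.37, and each ended without either control or 12 h replicate 2.

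**Figure D4:**
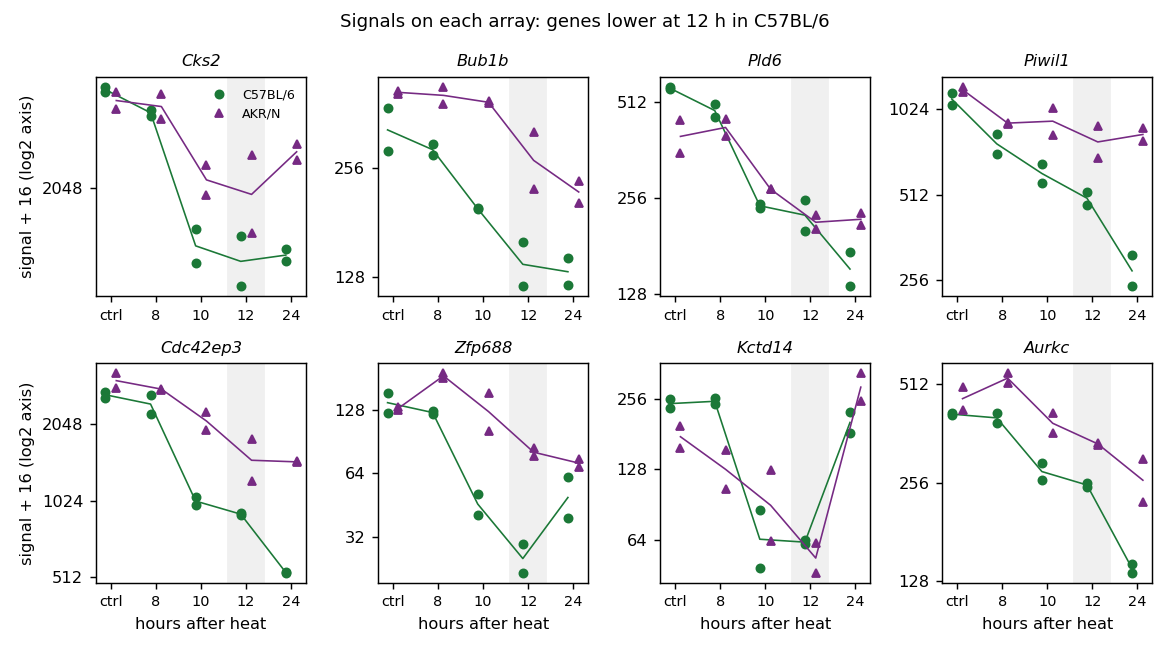
Signal + 16 (log2 axis) of 8 genes on each array by hours after heat, in C57BL/6 (green circles) and AKR/N (purple triangles); points are arrays, lines join group means and the grey band marks 12 h. In C57BL/6 both 12 h points lie below both control points in every panel, while at 24 h Kctd14 was back near its control signals at 209.4 and 166.8. Cdc42ep3, Zfp688 and Kctd14 were picked among called genes whose arrays do not overlap, so their separation was set by the choice.

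The genes with the largest falls belonged to no single list, and many carry only RIKEN names. Zfp688, a zinc finger gene, read 107.7 and 137.9, then 5.72 and 13.6, so that its 12 h arrays were dim. Msi2, an RNA-binding protein of stem cells, read 434.1 and 386.8, then 80.7 and 75.1 (−2.18 ± 0.27), but its 7 other probe sets gave −0.50 to 0.36 and the mean of its probe sets did not pass (−0.21, adjusted p = 0.188). Kctd14, a BTB-domain gene, read 238.4 and 218.3, then 47.9 and 45.6 (−1.96 ± 0.32, adjusted p = 0.00146), with −1.41 to −1.07 on 3 other probe sets. Cdc42ep3, an effector of the GTPase CDC42, read 2724 and 2576, then 882.9 and 896.3, a fall at −1.56 ± 0.16 (adjusted p = 1.23e-04), with −1.27 on its other probe set. Mgll, monoglyceride lipase, read 449.3 and 585.9, then 153.5 and 161.8, and its 4 probe sets all gave lower values at 12 h. Vapb, a tether of the endoplasmic reticulum, fell by 1.70 ± 0.26, with 0.12 and 0.29 on its other probe sets and a probe set mean of −0.43. The falls of Zfp389, Aym1, 4931408D14Rik, 4933414I15Rik, 4930503E14Rik, 4932702P03Rik and 1700006A11Rik ran from −1.92 to −1.56, and all 13 of these calls held. That of 4933417O13Rik (−1.57 ± 0.37) ended without 12 h replicate 2 or either control.

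Markers of some somatic cells rose beside these falls. Of 22 Sertoli cell genes 11 rose, 0 fell in limma and 11 did not pass, with a median of 0.36. Vim, the intermediate filament of Sertoli and other somatic cells, read 484.8 and 457.9, then 1513 and 1315, a rise of 1.55 ± 0.14 (adjusted p = 4.41e-05). Clu (clusterin), a secreted chaperone, read 3843 and 4144, then 6749 and 6402 (0.72 ± 0.10), Nr0b1, a nuclear receptor, rose by 0.88 ± 0.15 and Amhr2, the AMH receptor, by 0.74 ± 0.14. Kitl, the ligand that germ cells need, rose by 1.23 ± 0.23. These calls held, but that of Amhr2 ended with the actin covariate (0.51, adjusted p = 0.0683). Other Sertoli genes stayed nearer to 0: Wt1 read 0.20 ± 0.27, Fshr −0.17 ± 0.19 and Rhox5 0.00. The 11 rises became 7 without either control or with the actin covariate. The list's summed signal was 18340 and 18450 in the controls and 27620 and 27400 at 12 h.

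Of 17 genes of peritubular cells and matrix 7 rose, 0 fell in limma and 10 did not pass, with a median of 0.52. The basement membrane collagens Col4a1 and Col4a2 rose by 0.84 ± 0.15 and 0.78 ± 0.14, and these calls held. Col3a1 rose by 1.15 ± 0.23 and Acta2, the smooth muscle actin, by 0.60 ± 0.13, and both calls ended without control replicate 2. The other probe set of Acta2 gave 0.11, and the mean of its probe sets did not pass in limma (0.095, adjusted p = 0.706). The 7 rises became 4 without control replicate 1, 2 without control replicate 2, 3 with median centring and 3 with the actin covariate. Of 23 genes of the blood-testis barrier 3 rose and 1 fell, a called share of 17.4% against 19.1% of all genes, with a median of 0.20. Ctnna1 (alpha-catenin) read 327.2 and 334.7, then 929.4 and 644.4, a rise of 1.19 ± 0.16 that held, with other probe sets at −0.10 and 1.02. Ctnnb1 (beta-catenin) rose by 0.61 ± 0.13, a call that ended without 12 h replicate 1. Gja1 (connexin 43) changed by 0.61 and Jam3 by −0.52, and these calls ended without either control, that of Gja1 also without 12 h replicate 1 and that of Jam3 also without 12 h replicate 2. Ocln and Tjp1, of the tight junctions, changed by 0.18 and −0.12. The 3 rises became 1 with median centring.

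Genes of spermatogonia and spermatids held a few rises. Of 23 spermatogonial genes 5 rose and 1 fell, a called share of 26.1% against 19.1% of all genes, with a median of 0.33. Itga6, an integrin of stem cells, rose by 1.49 ± 0.25, Stra8, which starts meiosis, by 0.74 ± 0.14 and Ccnd2 (cyclin D2) by 0.66 ± 0.13, while Id4, a stem cell marker, fell by 1.03 ± 0.18, from 672.6 and 681.3 to 398.2 and 261.3. These calls held, but those of Id4 and Ccnd2 ended with the actin covariate (adjusted p = 0.0587 and 0.0866), and the 5 rises became 3 without control replicate 1, with median centring or with the actin covariate. Of 25 round spermatid genes 6 rose (24%), 0 fell in limma and 19 did not pass, with a median of −0.02. Falls among them numbered 4 with 64 added to the signal, 3 with a filter at the 60th percentile and 2 with probe set means. Tssk6 and Tssk2, kinases of late spermatids, rose by 0.63 ± 0.12 and 0.53 ± 0.11, Klhl10 by 0.48 ± 0.10 and the sperm channel gene Catsper1 by 0.65 ± 0.15. The Tssk2 call ended without control replicate 2 and that of Catsper1 without control replicate 1 or 12 h replicate 2. Those of Tssk6 and Klhl10 ended with the actin covariate (adjusted p = 0.0615 and 0.0549), and that of Klhl10 also with median centring. Of 24 elongating spermatid genes 3 rose (Fscn3, Cabs1 and Spata18, by 0.67, 0.55 and 0.51), a count of 0 with median centring or without control replicate 1 and 1 without 12 h replicate 1. The called share of the elongating spermatid list was 12.5%, and 9.71% of all genes rose. The defining protamine Prm1, which packs sperm DNA, read 9666 and 10410, then 10340 and 10780. The 6 round spermatid rises became 3 with median centring, without either control or without 12 h replicate 2, and 0 with the actin covariate.

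Lists of cells that could enter the testis or come along at dissection had called shares from 0% to 33.3%, against 19.1% of all genes, and several had medians above the 0.06 of all genes. Dim genes were called less often: 173 rose and 62 fell of the dimmest 3941, against 519 and 670 of the brightest 3941. Several of these lists read dim, so 19.1% is not a share matched for level. Of 19 macrophage and leukocyte genes 1 rose (Cd53, a leukocyte membrane protein, 0.88 ± 0.18) and 1 fell (C1qa, a complement component, −0.97 ± 0.23), a called share of 10.5% and a median of 0.31, with summed signals of 3885 and 3549 in the controls and 4659 and 3947 at 12 h. The C1qa call ended without 12 h replicate 2 or either control, and the mean of the probe sets of Cd53 did not pass (0.34, adjusted p = 0.222). Of 11 endothelial genes 2 rose (18.2%), Kdr (0.73) and Emcn (1.20), with a median of 0.53 and summed signals of 343.1 and 290.0, then 468.8 and 528.0. Both calls ended without 12 h replicate 2 or control replicate 2, and that of Kdr also without control replicate 1. None of 6 neutrophil and 2 red blood cell genes passed in limma, with medians of 0.35 and 0.40 (summed signals 158.9 and 134.2, then 170.4 and 269.7, and 61.0 and 89.1, then 113.4 and 93.4). Of 6 adipose genes 1 rose, Cidea, by 0.62, a call that ended without either control or 12 h replicate 1, and the list's median was 0.05 (summed signals 1003 and 593.4, then 591.0 and 776.1). Of 3 epididymal genes 1 fell, Rnase10, at −0.81, a call that ended without either control or 12 h replicate 2. The list's median was 0.33 and its summed signals were 83.9 and 67.5, then 58.4 and 64.9. Of 2 cold-inducible RNA-binding genes, Cirbp and Srsf5, none passed (−0.30 and −0.21). The part of cell composition in the other results was not tested.

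**Figure D5:**
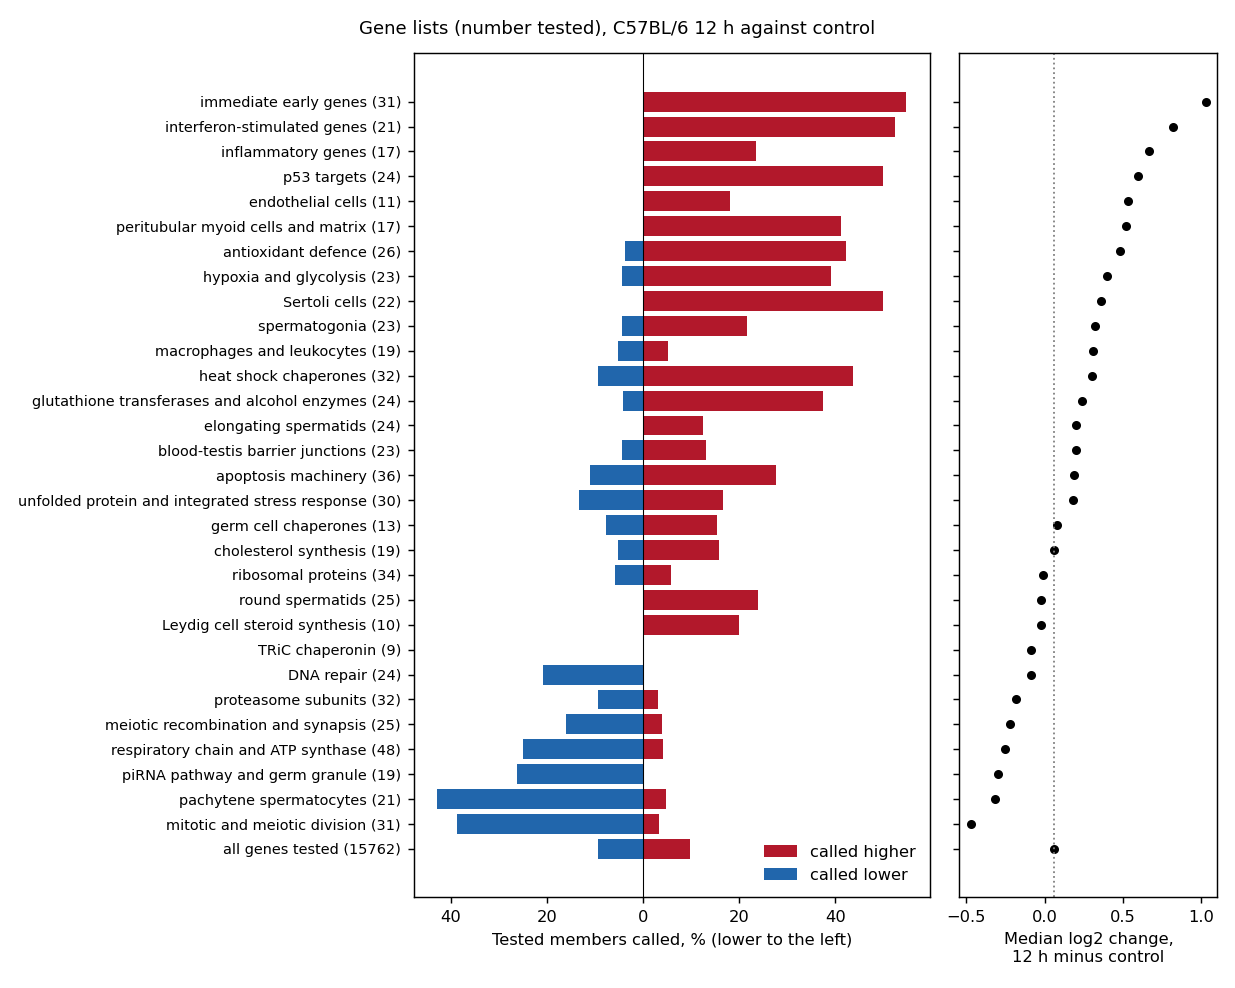
Left, percent of each list's tested genes (number in brackets) called higher (red, right) or lower (blue, left) at 12 h; right, median log2 change, with a dotted line at the 0.06 of all genes; lists under 9 tested genes are left out. Immediate early genes have the highest median, 1.03, and division genes the lowest, −0.47.

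Against the 10 h arrays, the 12 h arrays gave 0 called genes (0%) in limma, with 1429 genes under an unadjusted p of 0.05, and without 12 h replicate 1 14 genes were called. Hspa8 read 4590 and 4378 at 10 h and 4388 and 4265 at 12 h, a difference of −0.05 ± 0.12. Hspe1 read 2242 and 2312, then 2799 and 3302 (0.42 ± 0.19), Ccng1 325.4 and 212.9, then 521.1 and 408.6 (0.77 ± 0.22), and Vim 1085 and 979.7, then 1513 and 1315 (0.45 ± 0.14). Ifit2 was listed at 1.29 and 2.65 at 10 h and 19.1 and 23.3 at 12 h (1.05 ± 0.19). Each was higher on both 12 h arrays, apart from Hspa8, and none passed (adjusted p from 0.266 to 0.913). Ifit2 is named after its values were seen.

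From 12 to 24 h, 1515 genes were called (9.61%), of which 886 (5.62%) were higher at 24 h and 629 (3.99%) lower. Without 1 of the 4 arrays the count lay between 206 and 1786. Some of the rises were smaller at 24 h than at 12 h, without a return to the controls. Both 24 h arrays of Hspa1b, Hspa8 and Hmox1 still read above both control arrays. Of the 32 heat shock chaperones 13 were called higher than control at 24 h, against 14 at 12 h. Of all 15762 genes 3366 were called higher than control at 24 h and 1531 at 12 h, so the chaperone counts stand against different backgrounds. Hspa1b read 590.5 and 285.7 at 24 h, −3.12 ± 0.66 from 12 h (adjusted p = 0.0117), a call that ended without 12 h replicate 2 (−2.41, adjusted p = 0.113) or 24 h replicate 2. Hspa8 read 2447 and 2596 at 24 h (−0.78 ± 0.12, adjusted p = 0.00283), and Hmox1 97.0 and 90.9 (−1.59 ± 0.40, adjusted p = 0.0255). The Hspa8 call held without each of these 4 arrays, and that of Hmox1 ended without 12 h replicate 2 or either 24 h array. Hspd1, at 2193 and 2250, and Star, at 750.6 and 645.2, overlapped with their 12 h values and did not pass.

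The Leydig cell list went both ways from 12 to 24 h: 3 were higher, 3 lower and 4 did not pass, with a median of 0.28. The steroid enzymes Cyp17a1, among the 5 largest called falls of this step, and Cyp11a1 were among the lower. Cyp17a1, which makes androgens from progestins, read 1171 and 1821 at 12 h and 520.7 and 404.2 at 24 h (−1.64 ± 0.19, adjusted p = 0.00132). Cyp11a1 read 461.7 and 548.4, then 288.4 and 213.6 (−0.97 ± 0.15, adjusted p = 0.00331). Of the pachytene list 6 fell, 1 rose and 14 did not pass in this step, with a median of −0.27, and of the 25 recombination and synapsis genes 0 fell in limma, with a median of 0.03. Among the pachytene genes that fell, Spag6l read 853.0 and 849.0, then 374.6 and 368.9 (−1.16 ± 0.14, adjusted p = 0.00132), and Aurkc 231.7 and 239.7, then 128.4 and 119.9 (−0.85 ± 0.15, adjusted p = 0.00502). Dnaic2, a dynein chain of motile cilia and sperm tails, read 287.5 and 253.3, then 74.7 and 66.6 (−1.72 ± 0.29). These 5 calls held, but with the mean of all probe sets Cyp11a1 did not pass (−0.26, adjusted p = 0.41) and Dnaic2 was at the threshold (−1.05, adjusted p = 0.05). The gene 4930478P22Rik changed by −1.48 ± 0.41, a call that ended without 12 h replicate 2 or either 24 h array. Of the division list 9 fell and 0 rose in this step.

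The largest called rises from 12 to 24 h included genes that had been lower or already higher at 12 h than in the controls. Diaph2, a formin that builds actin filaments, had fallen at 12 h by 0.87 ± 0.18 from 146.0 and 125.9 in the controls, a call that ended without 12 h replicate 2, with probe set means or with the actin covariate. It read 81.4 and 54.3 at 12 h and 379.7 and 325.6 at 24 h (2.15 ± 0.18, adjusted p = 2.03e-04), above both controls, and its other probe set gave 0.09 at 12 h and 1.32 in this step. Adh1, which had risen at 12 h, read 168.8 and 84.2, then 503.7 and 474.9 (1.89 ± 0.22). Ktn1 and Serpinb2 had changed by 0.43 and 0.39 at 12 h and had not passed. Ktn1, a kinesin anchor, read 122.0 and 45.3, then 300.5 and 283.3 (1.74 ± 0.28), and Serpinb2, a protease inhibitor, 6.93 and 11.2, then 78.2 and 128.9 (2.23 ± 0.39). In this step only the 24 h arrays of Serpinb2 reached the filter signal of 17.5, so the size of its rise rests on the 16 added to the signal. The macrophage gene C1qa, called lower at 12 h, read 54.7 and 51.2 in the controls, 30.6 and 10.5 at 12 h and 82.2 and 92.1 at 24 h (1.55 ± 0.23, adjusted p = 0.00267). These calls from 12 to 24 h held, as did that of the unnamed transcript A530020G20Rik (1.87 ± 0.29), which changed by 0.38 with a pseudocount of 4 and was then not called. Of the falls at 12 h, Kctd14 read 209.4 and 166.8 at 24 h, 1.69 ± 0.32 above 12 h (adjusted p = 0.00716), a call that ended without 12 h replicate 2 or 24 h replicate 1.

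The heat effect at 12 h in C57BL/6 was set against that in AKR/N, whose 12 h and control arrays are separate, and 0 genes (0%) differed in limma, with 1477 under an unadjusted p of 0.05. A pseudocount of 64 gave 1. Cdkn1a rose by 2.89 in C57BL/6 and 3.03 in AKR/N, a difference of −0.14 ± 0.36. Hspa1b rose by 5.86 and 3.41, a difference of 2.45 ± 0.93 (adjusted p = 0.447), and Egr1 changed by 3.42 and 0.91, a difference of 2.51 ± 1.02 (adjusted p = 0.491). Star changed by 2.79 and 1.61, a difference of 1.18 ± 0.30 (adjusted p = 0.414). Zfp688 changed by −2.45 and −0.69, a difference of −1.76 ± 0.33 (adjusted p = 0.215), and Oasl2 by 1.33 and −0.05, a difference of 1.38 ± 0.38 (adjusted p = 0.414). These differences did not pass, which does not show that the strains responded alike.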

How the data were processed

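Values are signals of the authors' deposited table, on a linear scale of never-negative intensity, with a mean after trimming 2% at each end of 125.001 on every array. The summary and scaling method is not given in the sources used here, and the authors' intensity values were not rescaled. Of 45101 probe sets 64 controls were left out, 34945 named 1 gene, 932 several and 9160 none in the platform annotation. A gene was read from its probe set with the highest mean, and genes under the 40th percentile (signal 17.5) were dropped, leaving 15762. Here log2(signal + 16) was fitted with limma 3.58.1 in R 4.3.3, 1 mean per group over all 20 arrays, with Benjamini-Hochberg adjustment over all genes. Calls are genes with an adjusted p under 0.05. The script was tested on simulated data. Arrays carry no read depth, and 2 a group limits the precision. Alternatives were other pseudocounts, filters, scalings, probe set means, array weights, the actin ratio as a covariate, a replicate block, the compared groups alone and leaving out each array. Of 35 lists with 829 entries, 754 had a probe set of their gene. The comparison and the lists were chosen with earlier results of these data known. Named genes were the 14 called genes a direction with the largest change and no overlap between groups, up to 4 called genes a list by adjusted p, and up to 5 a direction in the other comparisons. Others were named for their role.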

Additional observations from a re-analysis of the deposited data

How the results depend on the processing

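Of 15 alternatives to the comparison with control, 10 kept the count of calls within 1.5 times of 3010. The others were the 4 arrays alone (6), the actin ratio as a covariate (1091) and 3 of the 4 fits that leave out an array, whose range over all 4 was 1194 to 2588. For 24 h against 12 h the count of 1515 became 995 with median centring, 856 with array weights and 0 with the compared groups alone, and lay between 206 and 1786 with an array left out. For 12 h against 10 h it lay between 0 and 14 with an array left out. For the difference between strains it was 1 with a pseudocount of 64, 1 with a filter at the 60th percentile, chosen after seeing the data, and 0 to 1 with an array left out. Reversals of direction were looked for only among genes named here or in a list. Among those, 3 called genes reversed when all probe sets of a gene were averaged: Kif2c (−0.11), Fkbp4 (0.19) and Sod2 (0.25). Same-numbered arrays did not pair: over 45 pairs of groups the correlation of their deviations lay between −0.28 and 0.30, and that of 12 h with control was −0.03. With the replicate number as a block 2814 genes were called against control, 2761 of them among the 3010, 1359 for 24 h against 12 h, and 0 for each of the other 2 comparisons. Of 127 named genes called against control, 47 calls ended with the actin covariate, 20 with the mean of all probe sets, 16 with median centring, 11 with array weights, 11 and 31 without 12 h replicate 1 and 2, 30 and 35 without control replicate 1 and 2, and 121 on the 4 arrays alone. The causes were not tested. Signals near the background limit the dim genes.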
